A study of Homo sapiens with 4 samples.

Results

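The comparison described here is between recent and older IL-2 in 1 edited natural killer cell line. It uses the library from ΔOGT-ISS NK-92 cells that received human IL-2 24 h before RNA extraction and the library from the same line with IL-2 48 h before extraction, 2 of the 4 libraries in the series. All genes with at least 10 counts in one of these 2 libraries were kept, which gave 20413 of 61860 gene identifiers, of which 13068 are protein-coding.

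NK-92 is an established human natural killer cell line that depends on IL-2, and all cultures were grown in medium that contained recombinant human IL-2. In the ΔOGT-ISS line an intronic splicing silencer of OGT was deleted by CRISPR-Cas9, and the study states that this line has raised O-GlcNAc levels. Whether the line is 1 clone or a pool is not given in the sources used here. Only the titles of the 24 h libraries name IL-2, and the groups follow the treatment labels, which give IL-2 to all 4 libraries. The other 2 libraries, from wild-type (WT) NK-92 with IL-2 at 24 h and at 48 h, serve below as a pair that shares no library with the edited pair.

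IL-2 signals through a receptor of 3 chains, encoded by IL2RA, IL2RB and IL2RG, and through the kinases JAK1 and JAK3, which activate the transcription factors STAT5A and STAT5B. Known STAT5 targets include CISH, a feedback inhibitor, and the PIM kinases. Type I interferons signal through other JAK-STAT members, among them STAT2 and IRF9, and induce a set of antiviral genes whose promoters often carry an interferon-stimulated response element.

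Levels are given in CPM, a gene's counts scaled to a common library size with factors from the trimmed mean of M-values (TMM), and each ratio is the 24 h CPM over the 48 h CPM. With 1 library at each time there is no replicate and no test. The interval beside a ratio is the exact 95% binomial counting interval, which covers counting error only and not the spread between cultures. A gene is called higher or lower at 24 h when its whole interval lies beyond 2-fold. By this rule 2327 of 20413 genes were higher at 24 h (11.4%) and 2190 were lower (10.7%), and these shares are the background for the lists below. Of the 2190 lower genes, 1732 had under 50 counts in both libraries. Over genes with at least 50 counts in one library, 15.4% were higher and 3.68% lower. In bulk RNA, fewer cells of a type and less RNA per cell cannot be told apart.

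The windows printed next show the promoter letters of genes that the results turn on. They are 51 bases long and come from RefSeq promoters on GRCh38.p14, read 5′ to 3′ on the gene's strand, with matches in capitals. The first 4 belong to interferon-induced genes called lower at 24 h, and the capitals mark the response element core GAAANNGAA on either strand, with overlapping matches run together (ISG15, chr1:1013375-1013425, plus strand; IFIT1, chr10:89392500-89392550, plus strand; RSAD2, chr2:6865785-6865835, plus strand; IFI27, chr14:94110620-94110670, plus strand). The last 2 belong to IL-2 response genes called in opposite directions, and the capitals mark the STAT core TTCNNNGAA, which reads the same on both strands (CISH, called higher, chr3:50611857-50611907, minus strand; TNFRSF9, called lower, chr1:7940997-7941047, minus strand).
ISG15: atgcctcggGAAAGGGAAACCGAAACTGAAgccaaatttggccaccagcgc
IFIT1: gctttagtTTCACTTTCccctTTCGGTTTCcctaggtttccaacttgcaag
RSAD2: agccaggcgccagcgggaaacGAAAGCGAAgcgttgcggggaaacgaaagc
IFI27: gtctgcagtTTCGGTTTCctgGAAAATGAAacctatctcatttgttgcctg
CISH: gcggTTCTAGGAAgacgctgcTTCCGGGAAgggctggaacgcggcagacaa
TNFRSF9: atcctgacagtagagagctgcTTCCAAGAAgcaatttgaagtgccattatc

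The GAAANNGAA core was present in 2847 of 35116 RefSeq promoters of 300 bases (8.11%). Of the 39 measured interferon response genes, 30 had a promoter in the table and 21 of these held the core (70%). The core was found in 16 of the 21 members called lower (76.2%) and in 5 of the 9 not called (55.6%). OAS1, XAF1, HERC6, CMPK2 and SAMD9L were called lower without a match in this window. The TTCNNNGAA core was present in 7.66% of all promoters and in 3 of 17 STAT5 and IL-2 response genes (17.6%), namely CISH with 4 matches, LTA and TNFRSF9. A match is a description of the letters and not a binding site.

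OGT, which encodes the O-GlcNAc transferase, was measured first as the edited gene (ENSG00000147162, chromosome X, 71533083 to 71575897 on GRCh38). Its level was 356 CPM at 48 h and 413 at 24 h in the edited line, and 427 and 482 CPM in WT. The edited ratio was 1.16 (1.12 to 1.20) and the WT ratio 1.13. The time ratio of OGT was thus alike in the lines, with a ratio of ratios of 1.03 (0.977 to 1.08). In log2 units the edited ratio was 0.21. It was 0.022 with DESeq2 size factors, -0.031 with upper-quartile factors and -0.047 with library size alone, so the small rise depended on the scaling. The edited line did not have a higher OGT level in CPM than WT at either time. These are counts over the whole gene and do not tell spliced from unspliced transcripts. OGA, the enzyme that removes O-GlcNAc, went from 114 to 146 CPM (ratio 1.29, 1.21 to 1.37) and was not called. Of 12 measured genes of O-GlcNAc cycling and the hexosamine pathway, 2 were higher, UAP1L1 and AMDHD2, and 1 was lower at 24 h. Neither higher call was kept with the trend removed. The lower one was GNPDA1, a glucosamine-6-phosphate deaminase, with 31.9 CPM at 48 h and 4.05 at 24 h, a ratio of 0.127 (0.102 to 0.157) beside 0.120 in WT.

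The 24 h libraries were deeper. The edited line had 11305599 counts at 48 h and 28576566 at 24 h, and WT had 10889986 and 24809269. Ratios also followed base composition: the median log2 ratio of protein-coding genes in the edited line went from -0.16 where the longest transcript has at most 36% GC to 1.96 above 68% GC, and in WT from -0.39 to 2.23. A smooth trend on GC content and length was therefore removed as an alternative. The medians of these bins then lay between -0.18 and 0.08 in the edited line and between -0.05 and 0.23 in WT. With the trend removed, 669 of 19604 genes were higher at 24 h (3.41%) and 2555 were lower (13%). Of the calls without this step, 615 of the higher genes and 2060 of the lower genes were kept. In WT 996 of 18249 genes were then higher (5.46%) and 1314 lower (7.2%). The split of calls thus depends on this choice, and many of the higher calls below were lost without the trend. For list counts given without the trend, the shares with the trend removed are the background.

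**Figure D1:**
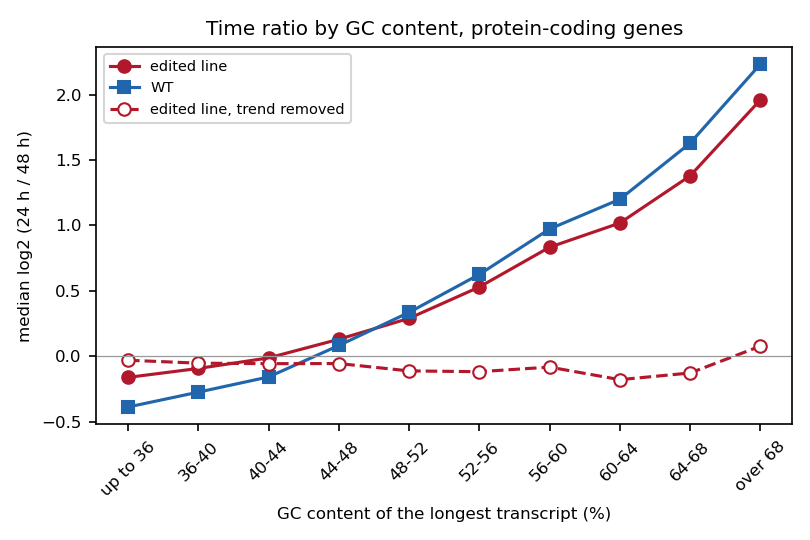
Median log2 ratio of 24 h over 48 h (y axis) for protein-coding genes in bins of the GC content of the longest transcript (x axis, percent), 1 library at each time. Medians climb with GC content in the edited line (filled red circles, -0.16 to 1.96) and in WT (blue squares, -0.39 to 2.23). Those of the edited line stay between -0.18 and 0.08 once the trend is removed (open circles).

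Of the 29 pathway lists, the type I interferon response had the median farthest from that of all genes in the edited line. The lists were chosen with earlier results of these data known, so this rank is a description only. Of 39 measured members of the interferon list, 26 were lower at 24 h, against 10.7% of all genes, and none was higher. The median log2 ratio was -1.83, beside 0.26 for all genes. The summed level of the list was 5774.7 CPM in the edited line at 48 h, 2627.8 in the edited line at 24 h, 1768.6 in WT at 48 h and 2693.6 in WT at 24 h. The edited 48 h library therefore stood above the other 3, and 35 of the 39 members had their highest level there. The same held for 18 of 28 ATF4 and amino acid response genes. It held for 1 of 28 histone and 0 of 38 nuclear oxidative phosphorylation genes. The share over all genes was not computed. With the GC and length trend removed 30 members of the interferon list were lower (background 13%), and with 3 other scalings 27 or 28 were.

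MX1, which encodes an antiviral dynamin-like GTPase (chromosome 21, 41420304 to 41459214), had 494 CPM in the edited line at 48 h, 48.1 at 24 h, and 17.7 and 32.6 in WT at 48 h and 24 h. The edited library at 48 h was the single high value, and its level was 10.3-fold that at 24 h (ratio 0.0974, 0.0917 to 0.103). IFI44L (chromosome 1, 78619922 to 78646145) had 77.6 CPM at 48 h and 4.49 at 24 h in the edited line, 17.3-fold lower at 24 h (14.3 to 21), and 0 and 0.174 CPM in WT. It was thus nearly absent from both WT libraries, where its counts were 0 and 4.

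The IFIT genes, which encode proteins that bind viral RNA, behaved alike in the edited line. IFIT1 went from 86.0 to 11.7 CPM (ratio 0.136, 0.119 to 0.154), IFIT3 from 318 to 50.6 (0.159, 0.150 to 0.169), and IFIT2, whose exons overlap another gene on the same strand, from 113 to 10.3 (0.0908, 0.0795 to 0.103). In WT the same genes had 7.05 and 10.6, 46.2 and 64.7, and 30.9 and 21 CPM at 48 h and 24 h, and none was called. ISG15, a ubiquitin-like protein that is joined to other proteins, had 272 CPM at 48 h and 33 at 24 h in the edited line, and 44 and 32.3 in WT. At 24 h the lines lay close together for ISG15, IFIT1 and IFIT3, while at 48 h the edited line was several times higher.

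Several members were called in opposite directions in the lines. RSAD2, which encodes viperin, went from 157 to 18.7 CPM in the edited line (ratio 0.119, 0.108 to 0.132) and from 11.1 to 36.6 in WT (ratio 3.29). OAS1, an oligoadenylate synthetase that activates RNase L, went from 54.2 to 12.3 CPM (0.227, 0.199 to 0.259) and in WT from 1.81 to 11.4 (6.29). Their ratios of ratios, edited over WT, were 0.0362 (0.0290 to 0.0450) and 0.0362 (0.0214 to 0.0584). OAS3, IFI27 and XAF1 made up the rest of the 5 members that were lower in the edited line and higher in WT. IFI27 had 247 and 68 CPM in the edited line against 2.26 and 12.3 in WT, so that here the edited line was above WT at both times.

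Of the transcription factors of the pathway, STAT2, IRF9 and IRF7 were not called in the edited line. STAT2 had a ratio of 0.874 (0.799 to 0.957) and IRF9, which overlaps a neighbouring gene, 0.88 (0.746 to 1.04). IRF7, the factor that amplifies interferon production, had 33.9 and 21.6 CPM in the edited line but 3.89 and 21.6 in WT, where its ratio was 5.56 and called higher. At 24 h the lines had the same IRF7 level to 3 digits. The cytosolic RNA sensor IFIH1, by contrast, was called lower, from 114 to 32.4 CPM (ratio 0.285, 0.262 to 0.310), and had 27.8 and 29.7 CPM in WT. BST2 and LY6E lay on the other side, with ratios of 2.03 and 1.70 that were not called.

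**Figure D2:**
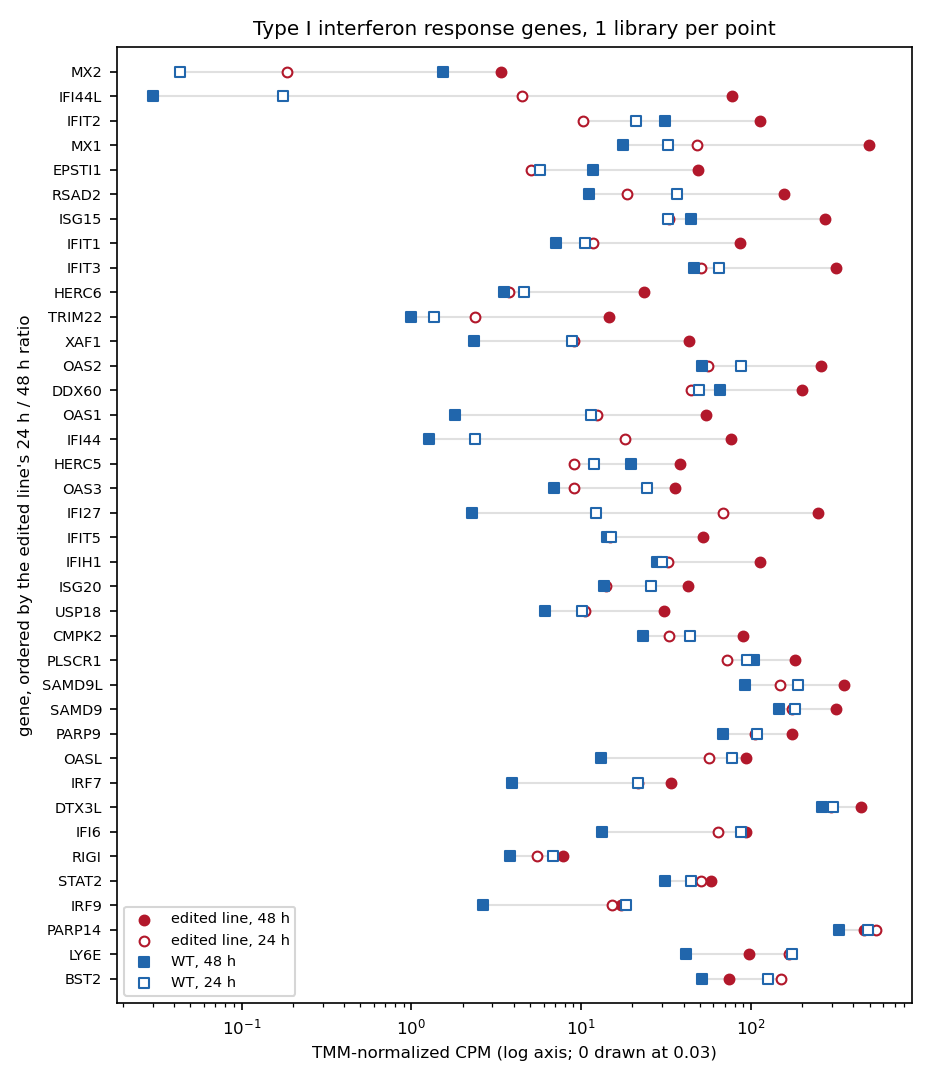
TMM-normalized CPM (x axis, log scale, 0 drawn at 0.03) of 38 of the 39 measured type I interferon response genes (y axis, ordered by the edited line's ratio), 1 library per point. The edited line at 48 h (filled red circles) is the highest library for 35 of all 39 genes (open circles, the edited line at 24 h; squares, WT), and 26 were called lower at 24 h.

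In WT the same list went the other way. Of 38 measured members, 11 were higher at 24 h, against 13.6% of all 18977 measured genes, and 1 was lower, against 6.5%; the median log2 ratio was 0.69 beside 0.32 for all genes. The ratio of ratios, edited over WT, lay below 1 with its whole interval for 38 of 39 members; the exception, MX2, had 43 and 5 counts in the edited line and 17 and 1 in WT (1.93, 0.194 to 97.2). Of 17 cytotoxic granule genes, 15 also had a whole interval below 1, and the share over all genes was not computed. With the trend removed 8 of the 38 WT members of the interferon list were higher and 2 lower, beside 5.46% and 7.2% of all genes. Among the 8742 protein-coding genes with at least 10 CPM in one of the 4 libraries, 85 had an edited log2 ratio more than 2 units below that in WT, and 24 of these 85 were on the interferon list. Only 9 genes lay more than 2 units above. Each line has 1 library at each time, so this difference has no residual spread to test it against.

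The interferon genes themselves were near the limit of counting. IFNB1 had 12 counts at 48 h and 2 at 24 h in the edited line and 0 in both WT libraries (edited ratio 0.0789, 0.00858 to 0.355). IFNLR1, a subunit of the type III interferon receptor, had 17 and 0 counts in the edited line and 0 in both WT libraries. Some lineage markers of other cells, picked after their values were seen, had like counts in the edited 48 h library: CD8B had 14 there against 0 at 24 h and CD22 15 against 1, both with 0 in WT at 48 h. Others went the other way, such as CD79A with 0 and 18. In all, 1010 genes had at least 10 counts in the edited line and 0 in WT at 48 h, and 182 the reverse. IFNG, the type II interferon that NK cells secrete, went from 56.2 to 16.8 CPM (ratio 0.299, 0.265 to 0.337) and in WT from 71.2 to 29. IFNAR1, a chain of the type I interferon receptor, had 77.9 and 56 CPM (ratio 0.719) and was not called. These genes belong to a list of 14 measured interferon ligands, receptors and sensors added after values were seen, of which 3 were higher and 3 lower. Of the 14 log2 ratios 8 were positive and 6 negative, with a median of 0.14. The members named here all had edited ratios below 1 and do not stand for the list.

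The IL-2 targets CISH and PIM1 were higher at 24 h, by nearly the same ratio in the edited line and in WT. CISH had 104 CPM at 48 h and 368 at 24 h in the edited line, and 113 and 398 in WT. Both 24 h libraries were thus high and both 48 h libraries low, with ratios of 3.53 (3.34 to 3.75) and 3.51 and a ratio of ratios of 1.01 (0.925 to 1.09). PIM1 had 183 and 539 CPM (ratio 2.94, 2.82 to 3.08) against 227 and 662 in WT. PIM3, of the same kinase family, had a ratio of 3.22 (2.92 to 3.54) and 2.63 in WT. With the GC and length trend removed the edited ratios were 1.93 for CISH, 1.70 for PIM1 and 1.01 for PIM3, and none of the 3 was then called.

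LTA, the cytokine lymphotoxin alpha, was the IL-2 response gene whose higher call was kept with the trend removed. It had 57.8 CPM at 48 h and 217 at 24 h in the edited line (ratio 3.75, 3.47 to 4.06; 2.33 without the trend) and 115 and 232 in WT. The lines differed mainly at 48 h, and the ratio of ratios was 1.86 (1.68 to 2.05). IRF4, a transcription factor, and TNFRSF1B, a TNF receptor that overlaps another gene, completed the 6 higher genes with ratios of 2.17 and 2.2, of which neither was kept without the trend. The list's MYC, a driver of growth, had 264 and 222 CPM (ratio 0.840) and the survival gene BCL2 266 and 363 CPM (1.36), neither of them called.

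TNFRSF9, CD69, NFIL3 and IL2RA were the 4 lower members. TNFRSF9, which encodes the costimulatory receptor 4-1BB, had 70 counts at 48 h and 18 at 24 h in the edited line and 13 and 179 in WT. Its edited ratio was 0.122 (0.0683 to 0.207) and its WT ratio 6.64, a ratio of ratios of 0.0189 (0.00791 to 0.0418). CD69, an early activation antigen, went from 22.8 to 3.19 CPM (ratio 0.140, 0.109 to 0.179), with a WT ratio of 0.659. NFIL3 was lower in both lines, with ratios of 0.304 and 0.299. In all, 6 of 24 measured STAT5 and IL-2 response genes were higher and 4 lower in the edited line, beside 7 and 1 of 25 in WT. Without the trend the counts were 1 higher and 5 lower in the edited line and 1 and 6 in WT.

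Of the receptor chains, IL2RB was called higher, IL2RA lower and IL2RG not called. IL2RB, the signalling beta chain, had 348 CPM at 48 h and 837 at 24 h in the edited line and 393 and 861 in WT, with an edited ratio of 2.41 (2.33 to 2.48). This ratio was 1.25 without the trend and not called. IL2RA, the alpha chain that raises affinity for IL-2, had 94.1 and 43.0 CPM (ratio 0.457, 0.421 to 0.495) against 161 and 126 in WT (0.780), and its lower call was kept without the trend. IL2RG, the common gamma chain, which overlaps another gene, had 63.4 and 84.5 CPM (1.33). JAK1 (1.11), JAK3 (1.79), STAT5A (2.07) and STAT5B (1.72) were not called. Of the 15 measured receptor and JAK-STAT genes, 2 were higher, IL2RB and the adaptor SHC1, and 2 lower, IL2RA and the phosphatase PTPN2. The shares were 11.4% and 10.7% over all genes, and 15.4% and 3.68% over genes with at least 50 counts in one library. Without the trend 0 were higher and 2 lower.

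**Figure D3:**
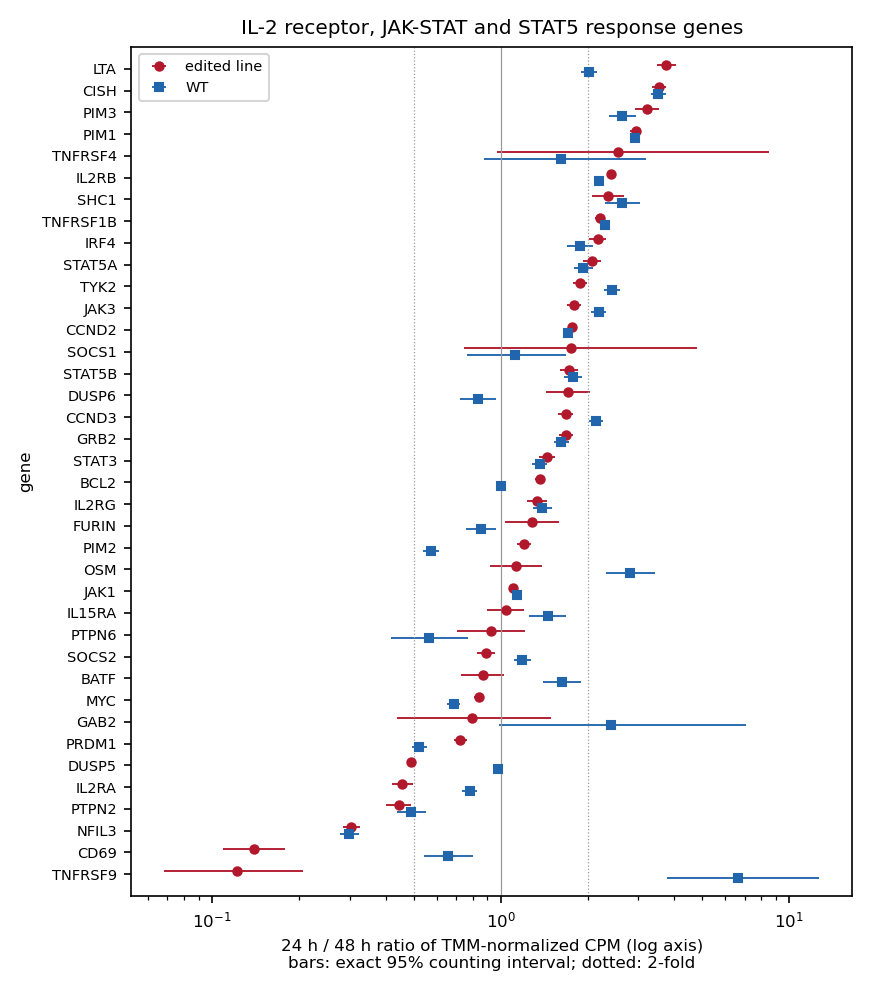
Ratio of 24 h over 48 h CPM (x axis, log scale) with its exact 95% counting interval (bars) for IL-2 receptor, JAK-STAT and STAT5 response genes (y axis), in the edited line (red circles) and WT (blue squares), 1 library at each time. CISH and PIM1 lie at nearly the same ratio in the lines, while TNFRSF9 lies at 0.122 in the edited line and at 6.64 in WT.

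Of the cytotoxic granule genes, GZMB, GNLY and TNFSF10 were lower at 24 h in the edited line, and none of the 3 was called in WT. GZMB, the granzyme that cleaves caspases in target cells, had 760 CPM at 48 h and 351 at 24 h in the edited line, and 814 and 1206 in WT. The 24 h edited library was the lowest of the 4 and the 24 h WT library the highest, and the ratio of ratios was 0.312 (0.301 to 0.324). GNLY, the membrane-lysing granulysin, had 120 and 52.8 CPM against 169 and 317 in WT, and ratios of 0.440 (0.410 to 0.474) and 1.87. TNFSF10, the death ligand TRAIL, was the third lower member, with 34.8 and 13.5 CPM (0.389, 0.338 to 0.448). GZMM was the single higher member, from 5.56 to 34.4 CPM, and its ratio of 6.19 (4.86 to 8) was below the 13.9 of WT; with the trend removed it was 2.21 and not called. The pore-forming perforin, PRF1, had 262 and 322 CPM (ratio 1.23), and in WT 229 and 471. Of 17 measured members 1 was higher and 3 were lower, beside 4 and 0 in WT. The median log2 ratio was -0.21 beside 0.57 in WT, and 15 of 17 had an edited ratio below that of WT. The same held for 15 of 17 MHC class I, 25 of 28 histone and 24 of 28 ATF4 list members. It held for 0 of 38 nuclear oxidative phosphorylation genes and 1 of 30 splicing regulators. The share over all genes was not computed.

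Among secreted factors, 6 of 16 measured NK cytokines and chemokines were higher and 3 lower. TNF went from 7.44 to 32.5 CPM (ratio 4.37, 3.53 to 5.46), close to the WT ratio of 4.23, and its call was kept without the trend. TGFB1, LTB, FLT3LG and IL16 were higher with ratios of 4.90, 3.13, 4.13 and 2.56, but not without the trend. CCL5, a chemokine that attracts T cells and NK cells, had 220 and 249 CPM in the edited line (ratio 1.13) while in WT it had 205 and 695 (3.38). CXCL10, itself an interferon-induced chemokine, had 22 counts at 48 h and 2 at 24 h and 0 in both WT libraries.

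All 16 NK cell markers were measured, and 6 were higher and 2 lower at 24 h, but 1 and 2 with the trend removed and 3 and 2 with upper-quartile factors or library size alone. Their summed level was 2916.37 CPM at 48 h and 4126.45 at 24 h. TBX21 and EOMES, the T-box factors of NK cells, had 100 and 298 CPM (ratio 2.98, 2.81 to 3.16; 1.44 and not called without the trend) and 166 and 344 CPM (2.07, 1.97 to 2.17, not called). CXCR3, a chemokine receptor, went from 19.2 to 99.1 CPM (5.16, 4.53 to 5.91), which was kept without the trend. ZNF683, which encodes the tissue-residency factor HOBIT, had 2.51 and 7.83 CPM in the edited line and 3.16 and 148 in WT, so that the WT 24 h library stood alone and the ratio of ratios was 0.0668 (0.0393 to 0.114). NCAM1, which encodes CD56, had 235 and 510 CPM. CD7 had 7 counts at 48 h and 331 at 24 h (ratio 22.4, 10.7 to 56.1), and 7 and 251 in WT.

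The NF-kB targets TNFAIP3, BIRC3 and NFKBIA were lower at 24 h in both lines. TNFAIP3, which encodes the NF-kB inhibitor A20, had 208 CPM at 48 h and 14 at 24 h in the edited line, 14.8-fold lower at 24 h, and 203 and 40.9 in WT (ratios 0.0674, 0.0603 to 0.0751, and 0.202). BIRC3, an inhibitor of apoptosis, had 312 and 44.9 CPM and in WT 297 and 48.4. NFKBIA, the inhibitor IκBα, had 405 and 79.9 CPM and in WT 339 and 107. For these 3 genes both 48 h libraries were high and both 24 h libraries low. Of 20 measured NF-kB genes 4 were lower and 1 was higher, beside 3 and 1 in WT. Without the trend the counts were 9 and 0 in the edited line and 10 and 0 in WT. Of all genes, 13% were then lower and 3.41% higher in the edited line, and 7.2% and 5.46% in WT. JUN, an AP-1 subunit, had 151 and 25.0 CPM (ratio 0.165, 0.151 to 0.180) and a WT ratio of 0.135. Of 21 immediate early genes 6 were lower, JUN, FOS, FOSB, ATF3, DUSP1 and KLF6, and 1 was higher, DUSP2, whose call was lost without the trend.

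The ATF4 and amino acid response list had 10 of 28 members lower and 1 higher, with a median log2 ratio of -0.68, beside 3 lower and 2 higher in WT. Without the trend 16 were lower and 0 higher in the edited line, and 8 and 1 in WT. ATF4, the factor itself, had 505 CPM at 48 h and 288 at 24 h (ratio 0.570, 0.551 to 0.589, not called) and 238 and 210 in WT. SESN2, a sestrin that restrains mTORC1 when leucine is short, had 96.3 and 13.3 CPM (ratio 0.138, 0.123 to 0.156) and 30.2 and 16.9 in WT, and the ratio of ratios was 0.248 (0.204 to 0.3). SLC7A11, the cystine transporter, had 119 and 17.7 CPM, and its ratio of 0.149 was near the 0.175 of WT. DDIT3, which encodes CHOP and overlaps another gene on the same strand, had 36.5 and 8.76 CPM (0.240) and 11.8 and 7.63 in WT. The edited 48 h library was thus the highest of the 4 for each of these genes. ATF3 had 237 counts at 48 h and 25 at 24 h, a ratio of 0.05 (0.0317 to 0.0756). Of 23 genes of the unfolded protein response in the endoplasmic reticulum 3 were lower, DNAJB9, HERPUD1 and MANF (ratios 0.286, 0.275 and 0.384), and all 3 had WT ratios of 0.318 to 0.460. With the trend removed 9 of the 23 were lower, and 5 with each of 3 other scalings, beside 5 of 23 in WT with or without the trend. TXNIP, which encodes an inhibitor of glucose uptake, went from 18.6 to 62.9 CPM (ratio 3.39, 2.96 to 3.90; 3.13 without the trend) beside 7.29 in WT. It belongs to a list of 9 measured stress and nutrient response genes added after values were seen. Of these 1 was higher and 5 were lower, with a median log2 ratio of -1.50.

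Glycolysis and hypoxia genes had 5 of 31 members lower and 2 higher, and 9 and 1 without the trend. PFKFB4, which makes the activator of phosphofructokinase and shares exonic sequence with a neighbour, had 41.4 and 1.52 CPM (ratio 0.0367, 0.0260 to 0.0505) and a WT ratio of 0.0879. P4HA1, a collagen prolyl hydroxylase subunit, had a ratio of 0.207 and 0.116 in WT. The other lower members, VEGFA, CA9 and EGLN3, had at most 42 counts at 48 h and 2 or 3 at 24 h.

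S100A9, a calcium-binding protein best known from myeloid cells, had 522 CPM at 48 h and 41.8 at 24 h in the edited line (ratio 0.0801, 0.0752 to 0.0854) and 745 and 311 in WT (0.418). S100A12, of the same family, had 250 counts at 48 h and 3 at 24 h (ratio 0.00568, 0.00116 to 0.0168), and 219 and 54 in WT. TREM1, a myeloid activating receptor, had 193 and 6 counts, and CXCL8, the neutrophil chemokine IL-8, 158 and 3, beside 338 and 1 in WT. Of 10 measured myeloid-type genes, from a list added after values were seen, 8 were lower in the edited line and 6 in WT. The summed level of all 17 list members was 637 CPM at 48 h and 53.1 at 24 h, and 1467 and 452 in WT. The 10 myeloid lineage markers had 3 measured members, CSF1R, S100A8 and S100A9, of which 2 were lower. The summed level of all 10 went from 541 to 47.1 CPM, and from 783 to 330 in WT. In the edited line S100A9 alone, at 522 and 41.8 CPM, made up most of this sum and of the sum over the 17. CSF1R was not called, with 42 counts at 48 h and 102 at 24 h. The other 7, CD14, LYZ, FCN1, MPO, CD68, SPI1 and CEBPA, had at most 8 counts in each edited-line library, with LYZ and CD68 at 0 at 48 h and FCN1 and CEBPA at 0 at 24 h. The part of these genes in the other results was not tested.

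Among markers of other cells, 9 of 12 T cell markers were measured, 2 higher and 2 lower, among them CD6 at 36 and 556 counts, and CD3E, which NK-92 is known to express, was not called with 2134 counts at 48 h and 9158 at 24 h. CD3D had 6 and 0 counts, and CD4 4 and 2. Of 8 B cell markers 4 were measured, 1 higher and 2 lower, with PAX5 at 703 counts at 48 h and 2342 at 24 h, CD79A at 0 and 18, and MS4A1 at 3 and 1. Of 10 fibroblast and epithelial markers 4 were measured, 1 higher and 2 lower, with PDGFRB, the higher one, at 2607 and 14308 counts, and KRT8 and CDH1 at 0 in both edited-line libraries, and of 7 erythroid markers 1 was measured, with HBB at 0 in all 4 libraries. Without the trend the higher calls of CD79A and PDGFRB were lost.

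Replication-dependent histone genes were the list that was higher most often. Of 28 measured members 18 were higher and 1 was lower, against 11.4% and 10.7% of all genes, with a median log2 ratio of 1.26. H4C8 had 35.5 CPM at 48 h and 227 at 24 h (ratio 6.38, 5.8 to 7.04), H2BC5 93.6 and 532 (5.68, 5.36 to 6.04) and H4C3 159 and 740 (4.65, 4.44 to 4.87). The WT ratios were 6.63, 7.96 and 4.51. In both lines each of these 3 genes was thus high at 24 h and low at 48 h. All 18 higher members were also higher in WT, where 23 of 29 were called. The summed level of all 30 list members went from 7014 to 15444 CPM in the edited line. Without the trend 11 members were higher and 1 lower, with a median of 0.80. Most replication-dependent histone transcripts lack a poly(A) tail, and the libraries were made after ribosomal RNA depletion. The make-up of the libraries differed between the times in both lines. RN7SL1 held 0.394% of counts at 48 h and 2.76% at 24 h in the edited line, and 0.425% and 4.39% in WT. Mitochondrial ribosomal RNA held 0.358% and 0.0162% in the edited line, and 0.187% and 0.0174% in WT. The part of this difference in the histone ratios was not tested.

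Of 36 G1/S and replication genes 1 was higher, TYMS, which makes thymidylate (ratio 2.71; 2.23 without the trend), and none was lower. Of 30 G2/M genes 5 were higher, NUSAP1, PLK1, CDC20, FOXM1 and CDC25B, of which only NUSAP1 was kept without the trend, at 4 and 136 counts. Of 34 MYC and ribosome biogenesis genes 3 were higher, CAD, PPAN and RRP9, and 0 without the trend. Of 56 cytosolic ribosomal protein genes 1 was higher and 2 were lower, RPL38 (0.268) and RPS20 (0.472), beside 3 and 10 in WT. With the trend removed the counts were 0 and 8, and 0 and 18 in WT, and with 3 other scalings 5 to 9 members were lower in the edited line. Cholesterol and fatty acid genes had 9 of 30 members higher, among them FASN, the fatty acid synthase (262 and 733 CPM); without the trend 1 was higher, CYP51A1, and 2 were lower.

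**Figure D4:**
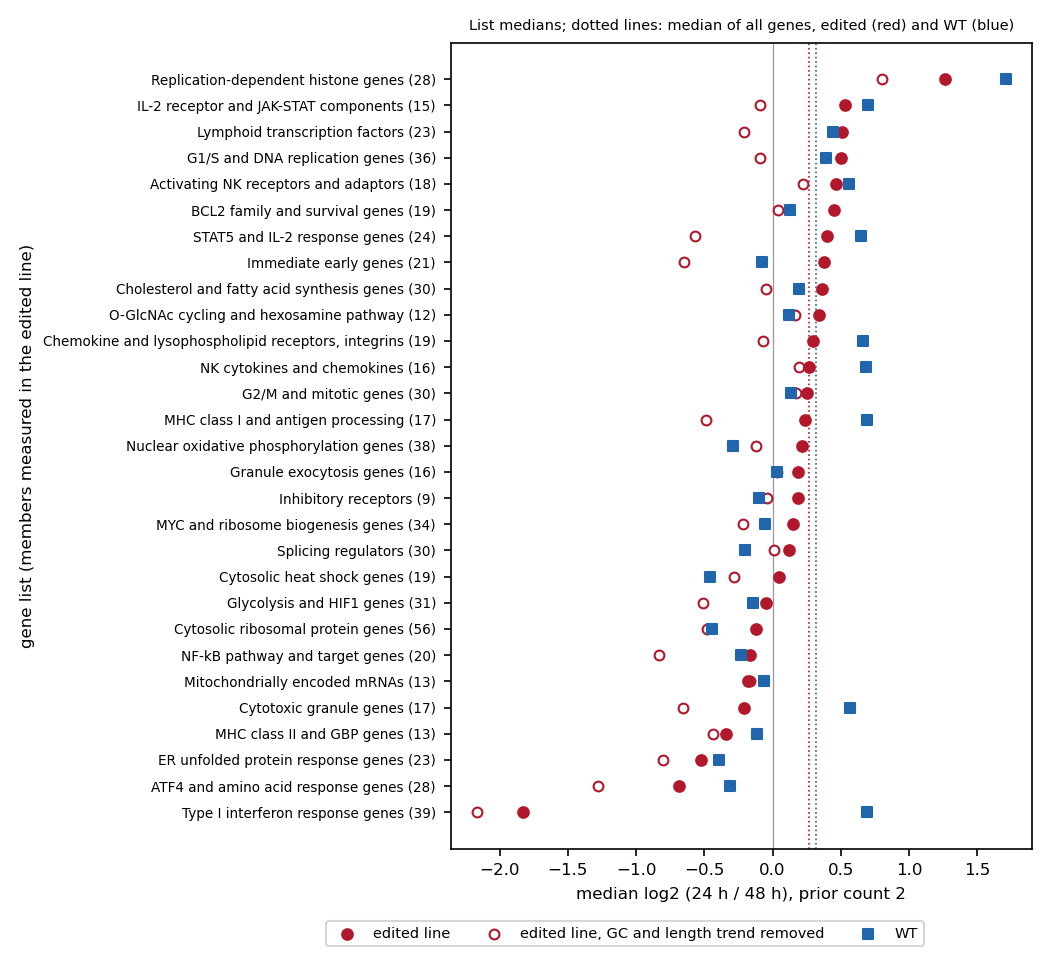
Median log2 ratio of 24 h over 48 h (x axis) over the measured members of each of 29 pathway lists (y axis, with the number measured), 1 library at each time. The type I interferon list lies at -1.83 in the edited line and at 0.69 in WT, and the histone list lies highest in both lines.

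Of the 12 protein-coding genes of at least 5 CPM that were called lower with and without the trend and whose intervals lay farthest from 1, all but RCAN2 were also called lower in WT. CHI3L1, a secreted chitinase-like protein, had 37.8 and 1.22 CPM (ratio 0.0324, 0.0220 to 0.0461) and in WT 591 and 87.6. TRIB1, a pseudokinase, had 412 and 24 counts, HOMER1, a synaptic scaffold protein, 209 and 13, and RCAN2, a calcineurin regulator, 234 and 16. In WT the ratios were 0.251 for TRIB1, 0.264 for HOMER1 and 0.453 for RCAN2, the last not called. CTLA4, an inhibitory receptor, had 88 counts at 48 h and 1 at 24 h (ratio 0.00538, 0.000135 to 0.0308), and 185 and 53 in WT.

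The 12 such genes on the higher side had at most 35 counts at 48 h. MGAT2, a Golgi glycosyltransferase, had 4 and 347 counts (ratio 41.1, 15.9 to 152) and in WT 0 and 337. MEPCE, which caps the 7SK RNA, had 20 and 901 counts and in WT 41 and 875, and ILK, the integrin-linked kinase, 3 and 163 and in WT 9 and 136. JMJD7-PLA2G4B, a readthrough gene that shares its exons with others, had 0 and 222 counts, at least 35-fold higher at 24 h against a floor of 3 counts in the 48 h library. In all, 69 protein-coding genes had at most 20 counts at 48 h and at least 150 at 24 h in the edited line. Exons of 43.5% of these overlapped another gene on the same strand, beside 16.7% of protein-coding genes that averaged 2 CPM or more. The part of the overlap in these ratios was not tested.

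The kind of gene also differed between the directions. Of 1297 processed pseudogenes 66 were higher and 328 lower, and of 1227 lincRNAs 76 were higher and 249 lower. Of the 2190 lower genes, 1732 had under 50 counts in both libraries, against 407 of the 2327 higher genes. Over the 12429 genes with at least 50 counts in one library, 1920 were higher (15.4%) and 458 lower (3.68%). Of these 458 lower genes, 453 were measured in WT and 258 of them were lower there too (57.0%), as were 1247 of 1918 on the higher side (65.0%).

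The 2 lines were then set side by side over the 17713 genes measured in both pairs, which share no library. A total of 1335 genes were higher in both, 58.5% of the 2281 higher in the edited line and 52.5% of the 2545 higher in WT. Lower in both were 506, 49.1% of 1030 and 54.5% of 928. Across the 9564 genes that averaged 5 CPM or more in each pair, the log2 ratios had r = 0.841, and 0.775 without the trend; genes are not independent replicates, and the pairs share the depth gap and the GC trend. In the edited line alone 26 genes were lower while higher in WT, and 1 was the reverse.

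**Figure D5:**
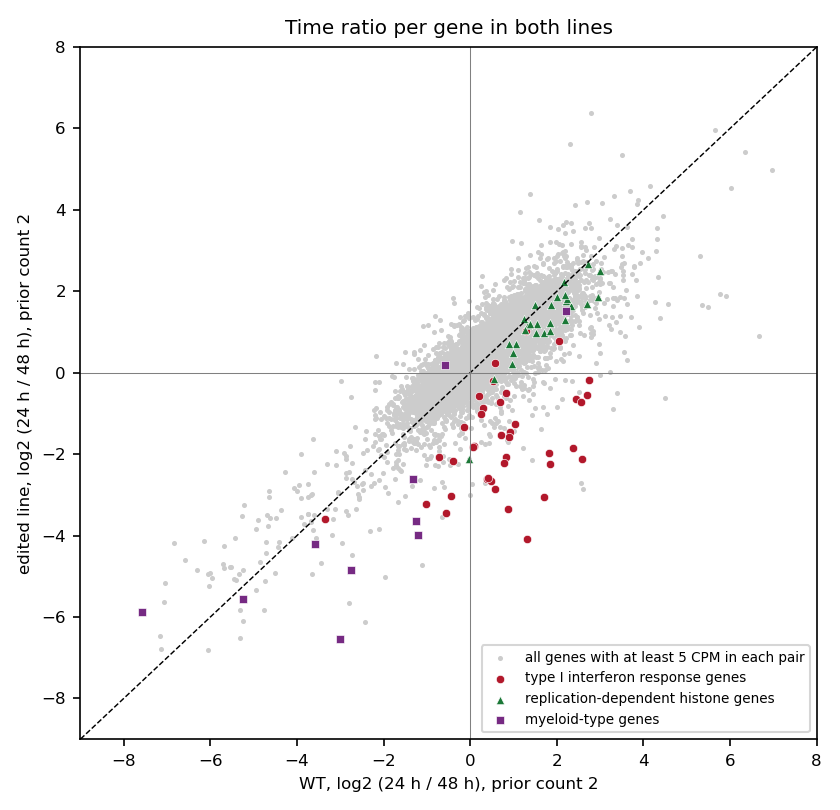
Log2 ratio of 24 h over 48 h per gene in WT (x axis) and in the edited line (y axis). Genes with at least 5 CPM in one library of each pair are in grey. Interferon response genes are red circles, histone genes green triangles and myeloid-type genes purple squares. The dashed line marks equal ratios, and interferon genes lie below it, where the edited ratio is the lower one. The r of 0.841 is over the 9564 genes that averaged 5 CPM or more in each pair, not over all plotted genes.

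Outside the interferon list, CPXM2, AP5B1 and TC2N were among the genes whose time ratios differed most between the lines. CPXM2 and AP5B1 had at most 25 counts in either edited-line library, and 324 and 309 in WT at 24 h. In the other direction TC2N, which overlaps another gene, went from 41.7 to 92.0 CPM in the edited line (ratio 2.21, 2.01 to 2.43) and from 127 to 59.8 in WT, a ratio of ratios of 4.70.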

How the data were processed

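RNA of 4 NK-92 libraries was sequenced as total RNA after ribosomal RNA depletion, per the labels' protocols. Whole-number gene counts were deposited by the authors. HISAT2 2.2.0, SAMtools 1.15.1 and featureCounts 2.0.1 are named in the submitters' processing notes, but its options for strand and for reads shared by overlapping genes were not stated in any source used here. The deposited FPKM table was used for gene symbols and to check the counts. Symbols were found for 41013 identifiers there and for 1404 in a name table, and positions come from GENCODE 29.

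TMM factors were computed from all 4 libraries with edgeR 4.0.16 in R 4.3.3, ratios and exact intervals with scipy 1.17.1, and the GC and length trend with an additive lowess (span 0.3, statsmodels 0.14.6). Log2 ratios use a prior count of 2. Ratios of ratios carry the exact conditional interval of an odds ratio. No test was run, since each line has 1 library at each time. Total counts were 10889986 to 28576566 per library, and 3 counts equal 0.235 CPM in the edited 48 h library and 0.111 in the 24 h one. The interval calls were tested on simulated counts with counting error only, and the removal of a GC trend on simulated log2 ratios. TMM scaling and ratios of ratios were not simulated. Alternatives were DESeq2 1.42.0 size factors, other scalings, filters, folds and thinning.

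Genes were named by rule: OGT and OGA; the 12 in each direction with the interval farthest from 1 among protein-coding genes of at least 5 CPM called with and without the trend; up to 6 called members of each list with the largest log2 ratio; the 6 in each direction that differ most between lines; and key pathway members whatever their value. Members and gene lists were chosen with earlier results of these data known, and 4 lists and some named genes were added after values were seen. Some genes the rule names are not reported here.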

Additional observations from a re-analysis of the deposited data

Results flagged for a closer look

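The time ratios of 6 named genes were called in opposite directions in the 2 lines, on log2 values of 24 h over 48 h; with 1 library at each time the difference was not tested. TNFRSF9 lay at -2.86 in the edited line and 2.61 in WT, on 13 to 179 counts per library. RSAD2 lay at -3.06 and 1.71, and OAS1 at -2.13 and 2.58. IFI27 lay at -1.86 and 2.38, OAS3 at -1.97 and 1.82, and XAF1 at -2.24 and 1.85. Of all genes 26 had such opposite calls, lower in the edited line and higher in WT, and 21 of them were protein-coding.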

How the results depend on the processing

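No paired analysis was possible because each line has 1 library at each time, and no library could be left out. The count of higher genes in the edited line (2327) was 1463 with upper-quartile factors, 1421 with library size alone and 669 with the GC and length trend removed. It was 5323 when the ratio itself, not its interval, had to pass 2-fold, 326 at 4-fold, and 1029 with counts divided by 4. The count of lower genes (2190) was 3339 with no count filter, 458 with at least 50 counts, 3453 for the ratio itself, 1039 at 4-fold, 1207 among protein-coding genes and 501 with counts divided by 4. In WT 1474 were higher and 1995 lower with upper-quartile factors, and 996 were higher with the trend removed. Genes whose log2 time ratio was more than 2 units higher in the edited line than in WT (9) were 14 with upper-quartile factors and 5 with library size alone. Higher genes made up 51.5% of the calls, and 39.7% with DESeq2 size factors (1641 higher, 2492 lower), 36% with upper-quartile factors, 35.1% with library size and 20.8% with the trend removed; these moved the median of all genes by -0.18, -0.24, -0.25 and -0.31 log2 units. With the trend removed, log2 ratios changed sign for 5 of the 156 named genes that were called. These were BCL3 (-0.11), HSF1 (-0.31), FASN (-0.10), PTBP1 (-0.076) and U2AF2 (-0.036). With this step 14 of 39 list medians also changed sign. Those of IL-2 receptor genes (-0.092), lymphoid transcription factors (-0.21) and common gamma chain receptors (-0.00278) had been 0.5 or more. Smaller ones included those of STAT5 and IL-2 response (-0.57), immediate early (-0.65) and MHC class I genes (-0.49). List medians that changed sign numbered 9 with library size, 8 with upper-quartile factors, 6 with DESeq2 size factors and 1 with the 24 h library thinned. Of 166 named genes 111 kept their call, or stayed uncalled, with the trend removed, and 142 with DESeq2 size factors. The number was 137 with upper-quartile factors, 136 with library size and 154 with the 24 h library thinned. The sign of uncalled genes did not enter these numbers. OGT, not called, had a log2 ratio of 0.21, but -0.031 with upper-quartile factors and -0.047 with library size. Counts divided by 4, the same-strand overlap filter and the WT and line-difference settings were chosen after seeing the data. The cause of these shifts was not tested. Genes under about 10 counts at both times cannot be placed at this depth.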
